A study of Mus musculus with 12 samples.

Results

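FGF signalling in mouse embryonic stem cells was followed through 10 genes picked by symbol: the ligand gene Fgf4, the receptor genes Fgfr1 and Fgfr2, the feedback inhibitor genes Spry1, Spry2, Spry4, Spred1 and Spred2, and the ETS transcription factor genes Etv4 and Etv5. All 10 were found once each among the 39179 genes counted, and all 10 passed the expression filter of each test. FGF4 is the main FGF ligand that these cells make themselves. It binds FGF receptors, which activate the RAS-MAPK cascade (RAF, MEK and ERK kinases), and ERK in turn induces genes whose products dampen the cascade (Sprouty and SPRED proteins, dual-specificity phosphatases) or carry its output (ETV4, ETV5). The pathway is known for moving naive pluripotent cells towards lineage commitment and towards primitive endoderm.

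Total RNA was sequenced in 12 libraries of 4 groups. The BRE-negative and BRE-positive groups (3 libraries each) were fractions of a BRE-GFP line, in which a BMP response element drives GFP. These cells had a mixed CBA and C57Bl/6 background, grew in fetal calf serum and LIF on feeder cells, were sorted by flow cytometry on SSEA1 and GFP, and were collected in pairs at 3 times. The FL group (2 libraries) carried floxed Smad1 and Smad5 alleles (Smad1/5 fl/fl), and the KO group (4 libraries) is labelled Smad1/5 -/-. FL and KO cells had a mixed CD-1, 129/Ola and C57Bl/6 background, grew in 2i and LIF on gelatin, and derive from 2 parental lines, of which each gave 1 FL library and 2 KO libraries. The labels do not tie a library to its line. In common usage, 2i is a pair of inhibitors, 1 against MEK and 1 against the kinase GSK3. Medium, substrate, line, strain, genotype and sorting therefore differ together between the BRE and the Smad1/5 libraries and cannot be told apart.

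On build GRCm38 (mm10), from the GENCODE annotation, Fgf4 (ENSMUSG00000050917, chr7:144847367-144865243, plus strand) and Fgfr2 (ENSMUSG00000030849, chr7:130162451-133123350, minus strand) lie on the same chromosome and Fgfr1 (ENSMUSG00000031565, chr8:25513654-25575718, plus strand) on another. The inhibitor genes are Spry1 (ENSMUSG00000037211, chr3:37639947-37644598, plus strand), Spry2 (ENSMUSG00000022114, chr14:105891947-105896819, minus strand), Spry4 (ENSMUSG00000024427, chr18:38586247-38601415, minus strand), Spred1 (ENSMUSG00000027351, chr2:117121374-117182279, plus strand) and Spred2 (ENSMUSG00000045671, chr11:19924375-20024026, plus strand). The transcription factor genes are Etv4 (ENSMUSG00000017724, chr11:101769742-101785371, minus strand) and Etv5 (ENSMUSG00000013089, chr16:22381309-22439719, minus strand). Each value below counts reads over the annotated exons of such a gene. Antisense transcripts overlap Fgfr1 (Gm16159, mean 0.076 CPM) and Spry1 (Gm42922), and as the strand setting of the counting is unknown, reads of the latter pair cannot be told apart.

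Library totals were 25862573 to 37319846 counts. Smad1 had 643 and 665 counts in FL and 373 to 619 in KO, and Smad5 had 1136 and 1153 counts in FL and 880 to 1176 in KO. Because the sources used here do not say which exons were removed, these counts do not check the genotypes. All 10 embryonic stem cell markers had counts in every library, among them Pou5f1 at 530 to 936 CPM (counts scaled to a common library size). Of 20 feeder fibroblast markers, the summed level was 96.9 to 248 CPM in the serum libraries and 15.5 to 24.2 CPM in the 2i libraries. Their defining members Col1a1 and Col1a2 ran from 4.69 to 19.6 and from 8.1 to 37.5 CPM in serum, and from 0.743 to 2.76 and from 0.0661 to 0.3798 CPM in 2i. The summed level of 11 primitive endoderm markers was 228 to 294 CPM in serum and 79.7 to 123 CPM in 2i. Most of it came from Lamb1 (84.5 to 134 CPM in serum, 27.6 to 37.9 in 2i) and Lama1 (60.7 to 103 and 31.5 to 60.6). Gata6 was at 2.38 CPM or less and Sox17 at 1.28 CPM or less in every library. Gata4 overlapped, at 1.09 to 2.78 CPM in serum and 0.715 to 1.93 CPM in 2i. In such bulk libraries, fewer cells of a type and less RNA per cell cannot be told apart.

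On the deposited TPM scale, which is per length and so allows genes to be compared, Fgf4 had the highest mean level of the 10 in all 4 groups, although in BRE-positive replicates 2 and 3 Spry2 (310.2 and 310.4 TPM) was above it. Its mean was 264 ± 42.1 TPM in BRE-negative, 270 ± 33.5 in BRE-positive (SD, n = 3 each), 299 ± 9.49 in FL (SD, n = 2) and 251 ± 10.3 in KO (SD, n = 4). Spry2 stood at 208 ± 56.4 and 263 ± 81.7 TPM in the serum groups. Fgfr1 was the more abundant of the 2 receptor genes, at 12.8 ± 0.9 TPM in BRE-negative and 8.22 ± 0.202 TPM in FL, against 1.32 ± 0.203 and 1.81 ± 0.0275 TPM for Fgfr2. In serum, Spry4 (116 ± 38.3 TPM in BRE-negative), Etv5 (102 ± 11.98), Etv4 (71.9 ± 12.8) and Spred1 (53.8 ± 11.4) lay between ligand and receptors, with Spry1 (17.3 ± 2.58) and Spred2 (12.9 ± 1.89) near Fgfr1. In FL this order changed. Etv5 (145 ± 13.8 TPM) came next after Fgf4, and Spry4 (8.39 ± 0.745) and Etv4 (10.7 ± 1.95) stood near Fgfr1.

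**Figure D1:**
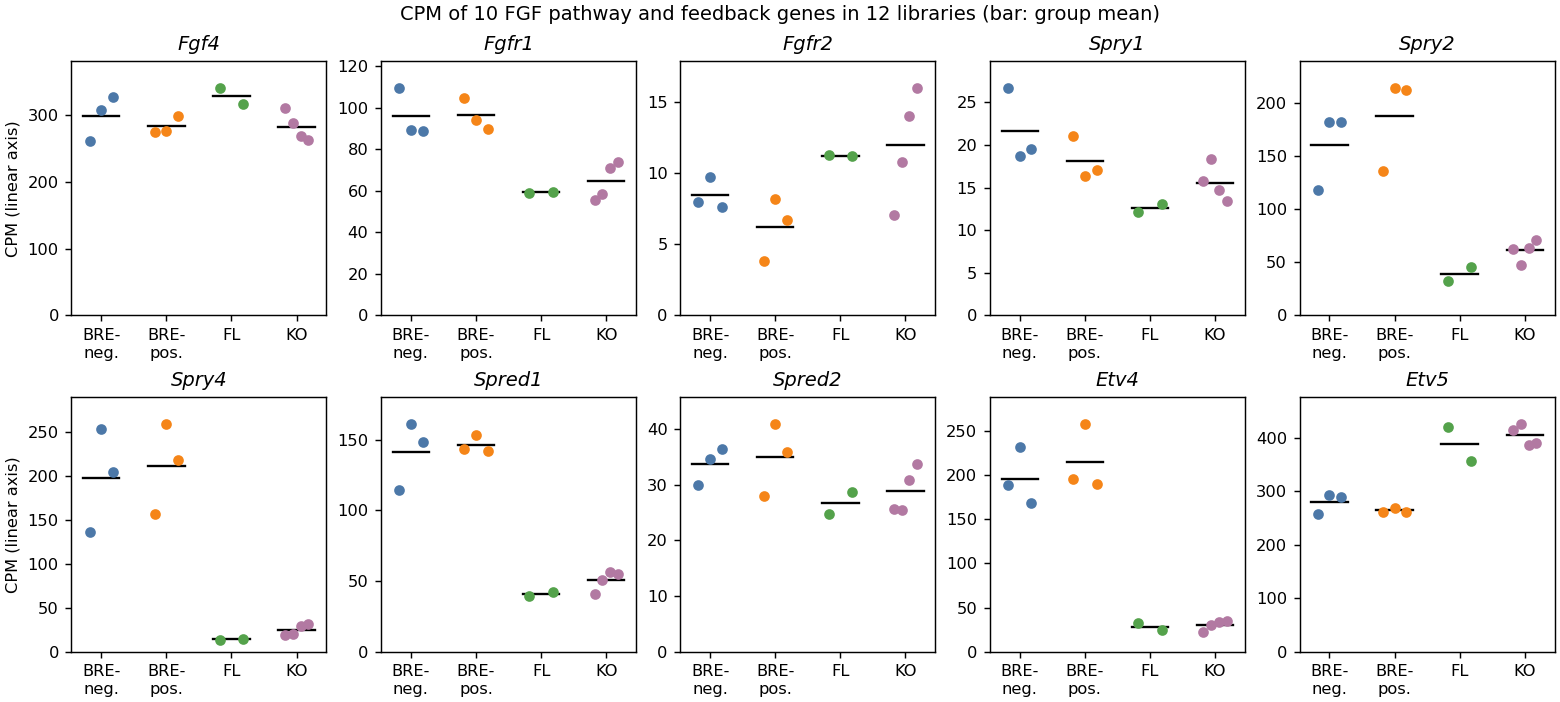
CPM (vertical axes, linear, starting at 0) of each of the 10 genes in the BRE-negative, BRE-positive, FL and KO libraries (points) with the group mean (bar). Spry2, Spry4, Spred1, Etv4 and Fgfr1 lie higher in every one of the 6 serum libraries than in any of the 6 2i libraries, and Etv5 lies lower.

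The comparison across culture systems set the 2 FL libraries (2i and LIF on gelatin) against the 3 BRE-negative libraries (serum and LIF on feeders). Spry4, Etv4 and Spry2 were at least 4-fold lower in FL, Spred1, Spry1 and Fgfr1 were lower by less, and Etv5 was higher, while Fgf4, Fgfr2 and Spred2 did not pass the test. The feedback inhibitor Spry4 was 14.2-fold lower in FL and the transcription factor gene Etv4 6.94-fold lower, yet the closely related Etv5 was 1.39-fold higher. By edgeR's quasi-likelihood test (Benjamini-Hochberg adjusted p under 0.05, used throughout) 7 of the 10 genes passed, where 45.7% of all 16360 genes tested did. Of the 10, 6 were lower and 1 was higher in FL, against 22.3% and 23.4% of all genes. The median log2 fold change was -0.74 over the 10 genes and 0.00 over all genes. A fall of at least 4-fold that passed the test was found for 3 of the 10 genes and for 5.34% of all genes.

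Spry4 encodes a Sprouty protein, an inhibitor of RAS-MAPK signalling that is itself induced by it. Its level was 136, 253 and 204 CPM in BRE-negative replicates 1 to 3 and 13.2 and 14.6 CPM in FL (log2 fold change -3.83 ± 0.27, SE, edgeR adjusted p = 2.38e-05). The groups were far apart, and Spry4 ranked 175th from the lowest log2 fold change of all genes tested. Spry2, the Sprouty gene with the highest mean TPM, stood at 118, 183 and 182 CPM in BRE-negative and at 32.3 and 46.0 CPM in FL (4.11-fold lower, log2 fold change -2.04 ± 0.23, edgeR adjusted p = 2.51e-04). Spry1, the third Sprouty gene, was low in both, at 26.7, 18.7 and 19.6 CPM against 12.2 and 13.1 CPM (1.72-fold lower, -0.78 ± 0.19, edgeR adjusted p = 0.00949). For each of the 3 Sprouty genes both FL libraries lay below all BRE-negative libraries, which held for 32.8% of all genes tested. Over the 10 genes, 9 had groups that did not overlap, against 67.4% of all genes.

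SPRED1 and SPRED2 are membrane proteins that carry the same cysteine-rich domain type as the Sproutys and keep RAF from being activated. Spred1 was 3.45-fold lower in FL, at 114, 161 and 148.5 CPM against 39.4 and 42.3 CPM (log2 fold change -1.79 ± 0.16, edgeR adjusted p = 8.44e-05). Spred2 did not pass, at 29.9, 34.7 and 36.4 CPM against 24.8 and 28.6 CPM (-0.34 ± 0.14, edgeR adjusted p = 0.0819). It passed without BRE-negative replicate 1 (-0.43, edgeR adjusted p = 0.0169). The same inhibitor family thus held 4 genes that were lower in FL and 1 that missed the threshold.

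ETV4 and ETV5 are ETS factors of the PEA3 group that are commonly read as outputs of FGF receptor signalling. Etv4 stood at 189, 232 and 168 CPM in BRE-negative and at 32.3 and 24.3 CPM in FL (log2 fold change -2.79 ± 0.19, edgeR adjusted p = 2.23e-05). Etv5 went the other way, with 257, 293 and 289.5 CPM in BRE-negative and 419 and 357 CPM in FL (0.47 ± 0.13, edgeR adjusted p = 0.0147). Every FL library was above every BRE-negative library for Etv5, as for 34.6% of all genes. Without FL replicate 1 the Etv5 call was lost (0.36, edgeR adjusted p = 0.171), and without FL replicate 2 it was kept (0.59, edgeR adjusted p = 0.038). It was also lost with limma on log2(TPM + 1) without a filter (0.52, adjusted p = 0.0648). The Spry1 call was lost without FL replicate 1 as well (-0.72, edgeR adjusted p = 0.0679). In fits with 1 FL library, that library was assumed to vary like the other group.

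For ligand and receptors the differences were small. Fgf4 did not pass, with 260, 307 and 326 CPM in BRE-negative and 339.5 and 316 CPM in FL (0.14 ± 0.13, edgeR adjusted p = 0.421), and it was the 1 gene of the 10 whose libraries overlapped between these groups. Fgfr1 was 1.62-fold lower in FL, at 109, 89.1 and 89.0 CPM against 59.0 and 59.5 CPM (-0.69 ± 0.13, edgeR adjusted p = 0.0027). Fgfr2, the receptor that is best known from primitive endoderm, stood at 7.94, 9.73 and 7.63 CPM and at 11.2 CPM in both FL libraries (0.41 ± 0.18, edgeR adjusted p = 0.0943). With the BRE-positive libraries as the serum group, Fgfr2 passed (0.83, edgeR adjusted p = 0.039), and so it did against BRE-negative with offsets for exon length and GC content (0.56, edgeR adjusted p = 0.0327). Its annotated exons overlap those of Ctbp2 on the same strand, through 1 long transcript, so its counts depend on how shared reads were assigned.

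The feeder fibroblast markers moved with this comparison, 17 of 18 tested being lower in FL and 0 higher, with 1 of the 20 at 0 in both FL libraries. Of 10 primitive endoderm markers 7 were lower and 0 higher. Their part in the differences of the 10 genes was not tested. In the serum libraries of pair 1 the feeder sum was lowest (136 and 96.9 CPM, against 202 to 248 CPM in pairs 2 and 3), and there Fgfr1 (109 and 105 CPM, against 89.0 to 94.2) and Spry1 (26.7 and 21.1 CPM, against 16.4 to 19.6) were highest. Spry4, Spry2 and Spred2 were lowest in that pair. So were Fgf4 (260 and 274.5 CPM, against 276 to 326) and, by little, Etv5 (256.6 and 261.7 CPM, against 262.0 to 293.2). These 2 sets of genes thus ran opposite ways between pair 1 and pairs 2 and 3.

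Across all 12 libraries, Spry2, Spry4, Spred1, Etv4 and Fgfr1 were higher in every serum library than in every 2i library, which also held for 21.8% of all genes tested. Etv5 was lower in every serum library, as were 23.8% of all genes. The mean of the 6 serum libraries was 9.67 times that of the 6 2i libraries for Spry4, 6.97 times for Etv4, 3.23 times for Spry2 and 3.03 times for Spred1. For Etv5 the 2i mean was 1.47 times the serum mean. In the order of group means, BRE-positive and BRE-negative overlapped for all 10 genes, and FL and KO for Fgfr1, Fgfr2, Spred1, Spred2, Etv4 and Etv5.

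**Figure D2:**
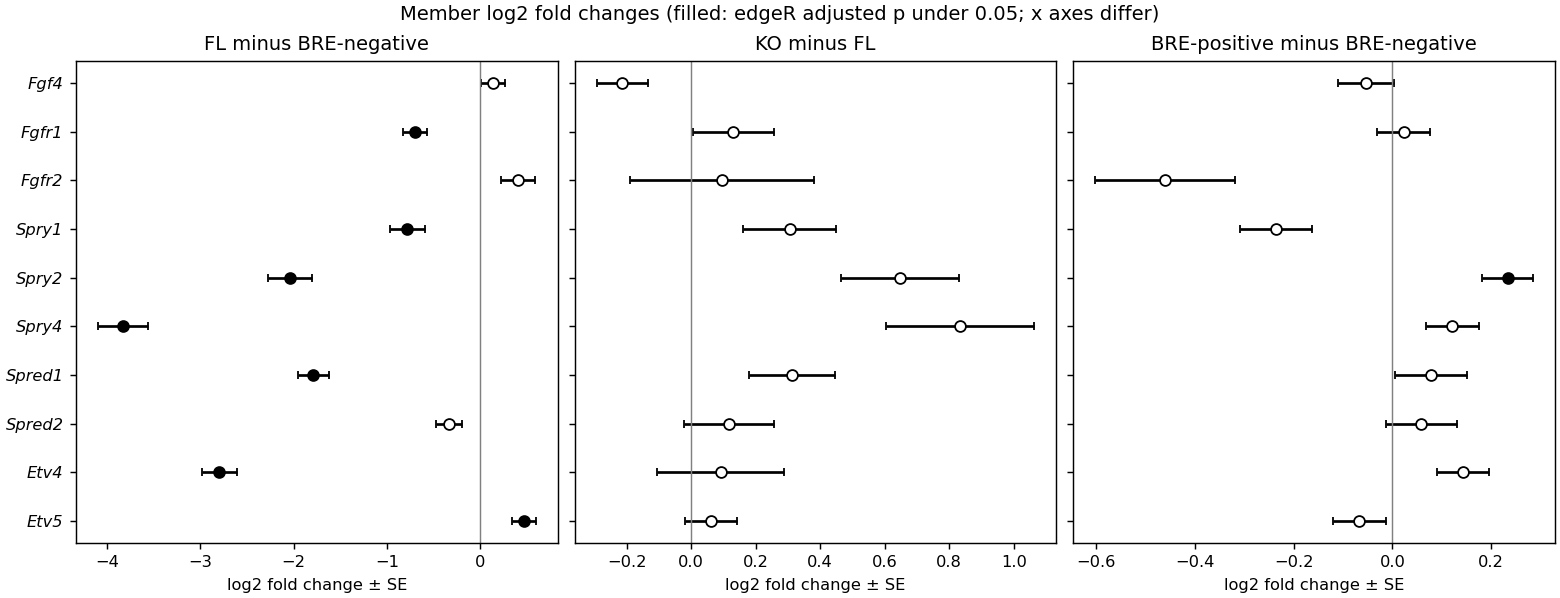
Log2 fold change with its standard error (horizontal axes, which differ in scale) of the 10 genes in the 3 comparisons, with filled points for edgeR adjusted p under 0.05. In FL against BRE-negative, 7 points are filled and Spry4 lies at -3.83. In KO against FL none is filled, and in BRE-positive against BRE-negative only Spry2 is.

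Promoter sequence is shown for 3 of the genes whose RNA differed between the culture systems, Spry2 and Spred1 (lower in FL) and Etv5 (higher). The sequences are those of RefSeq on build GRCm38.p6, 5′ to 3′ on the strand of the gene, and end at the base before the annotated start. The windows of 7 of the 10 genes, 8 windows in all, were matched by symbol. No window was found for Fgfr1, Spry4 and Etv4, so the matches below do not cover them. Capitals mark matches on either strand to TGAATG, the core of the octamers bound by the repressor Capicua (CIC), which ERK inactivates, or to CGGAAG, a core bound by ETS factors. Both motifs were chosen after the windows had been seen.
Spry2, chr14:105896820-105897069, minus strand: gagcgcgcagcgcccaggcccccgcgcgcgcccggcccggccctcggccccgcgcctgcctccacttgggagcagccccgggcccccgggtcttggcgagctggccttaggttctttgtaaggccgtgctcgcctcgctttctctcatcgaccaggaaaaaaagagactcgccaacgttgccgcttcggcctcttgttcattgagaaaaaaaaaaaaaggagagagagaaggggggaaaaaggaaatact
Spred1, chr2:117120821-117121070, plus strand: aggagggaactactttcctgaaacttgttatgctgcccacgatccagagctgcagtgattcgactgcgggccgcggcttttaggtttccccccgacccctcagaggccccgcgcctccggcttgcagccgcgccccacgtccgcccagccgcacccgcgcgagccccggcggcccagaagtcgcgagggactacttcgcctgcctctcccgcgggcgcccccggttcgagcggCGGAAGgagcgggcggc
Etv5, downstream start, chr16:22438369-22438618, minus strand: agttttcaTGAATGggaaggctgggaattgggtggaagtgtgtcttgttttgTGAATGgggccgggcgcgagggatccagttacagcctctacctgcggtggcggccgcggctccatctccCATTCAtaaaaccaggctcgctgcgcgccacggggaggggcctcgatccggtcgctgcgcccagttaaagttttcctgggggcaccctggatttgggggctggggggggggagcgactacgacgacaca

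Within windows of 300 bases (250 before to 50 after the start), TGAATG occurred in 12.7% and CGGAAG in 16.9% of the 32817 RefSeq promoter windows. The downstream Etv5 window held 3 matches to TGAATG (1 of them on the opposite strand), all within the stretch shown, and none of the other 7 windows held any. Each of the 3 reads TGAATGGG on its strand, so none completes a Capicua octamer. CGGAAG occurred 2 times in the Spred1 window, of which 1 lies within the stretch shown, and 1 time in that of Spred2. The Spry2 window held neither motif, and TGACGTCA, the cyclic AMP response element (in 1.79% of all windows), was in none of the 8. A match is a description of the letters and not a binding site.

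The other genes of the pathway were taken from 5 lists with 85 genes, 73 of which could be tested between FL and BRE-negative. These lists were chosen with earlier results of these data known. Most feedback and ERK-induced genes on them were lower in FL, while most genes of the cascade itself did not pass. Of 9 tested feedback genes outside the 10, 8 were lower and 0 higher (median log2 fold change -1.31). Of 20 genes on the list named ERK-induced, 12 were lower and 3 higher (median -1.11). That list also holds Elk1, Elk3, Srf and Cic, and whether ERK induces each of its genes was not tested. Of 23 cascade genes 1 was lower and 4 were higher (median 0.13). 

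Among feedback genes, Dusp6, the ERK phosphatase widely used as a reporter of the pathway, stood at 105, 199.6 and 153 CPM in BRE-negative and at 11.4 and 15.6 CPM in FL (11.3-fold lower, log2 fold change -3.50 ± 0.29, edgeR adjusted p = 5.09e-05). The phosphatase genes Dusp4 (10.7-fold, -3.42 ± 0.27) and Dusp5 (4.42-fold, -2.14 ± 0.36), the FGF receptor partner gene Flrt3 (4.12-fold, -2.04 ± 0.27) and Spred3 (2.48-fold, -1.31 ± 0.25) were lower too. Dusp7 was the 1 tested feedback gene that did not pass (-0.41 ± 0.17, edgeR adjusted p = 0.084). Spry3 had a count of 0 in all 5 of these libraries. Among ERK-induced genes the immediate early transcription factor genes Egr2, Egr1 (86.2-fold, -6.43 ± 0.46) and Fos (43.9-fold, -5.45 ± 0.38) had the largest falls of those with an average log2 CPM of 1 or more. Egr1 was 50.4-fold lower without FL replicate 1 and 338-fold lower without FL replicate 2. Egr2 had 253, 196 and 179 counts in BRE-negative and 0 and 4 counts in FL (-6.75 ± 0.56). Phlda1 (6.09-fold, -2.61 ± 0.57, 9.81-fold without FL replicate 2) and Junb (6.00-fold, -2.58 ± 0.14) came next at that level. Fosl1, below it and named after its values were seen, had 95, 54 and 94 counts in BRE-negative and 0 and 3 counts in FL. The 3 that were higher, Epha4 (2.78-fold), Elk1 (2.1-fold) and Ier3 (2.0-fold), are named after their values were seen. Ier3 had 17.9 and 7.57 CPM in FL and was not called without FL replicate 1 (1.2-fold, edgeR adjusted p = 0.54), nor without BRE-negative replicate 2 (1.85-fold, edgeR adjusted p = 0.11) or 3 (1.98-fold, edgeR adjusted p = 0.103).

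Of the 23 cascade genes, Araf, which encodes a RAF kinase, was 2.35-fold higher in FL (1.23 ± 0.12, edgeR adjusted p = 1.28e-04), and Nf1, a RAS GTPase-activating protein, 2.66-fold lower (-1.41 ± 0.18, edgeR adjusted p = 3.66e-04). Hras, Rps6ka3 and the adaptor gene Grb2 were 1.46-fold, 1.41-fold and 1.36-fold higher. The Rps6ka3 and Grb2 calls were lost without either FL library (edgeR adjusted p = 0.07 to 0.132), the former also without BRE-negative replicate 2 (edgeR adjusted p = 0.0791) and the latter without replicate 3 (edgeR adjusted p = 0.0505). Map2k1 and Map2k2, which encode the MEK kinases, had 0.28 ± 0.12 and 0.30 ± 0.12 (edgeR adjusted p = 0.0887 and 0.0717).

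Of 14 tested receptor, co-receptor and heparan sulfate genes, 6 were lower and 1 higher. The lower ones included the glypican gene Gpc1 (3.81-fold, -1.93 ± 0.16), Fgfr3 (2.77-fold, -1.47 ± 0.53, edgeR adjusted p = 0.049), the syndecan gene Sdc4 (2.75-fold, -1.46 ± 0.31) and Hs6st1, a heparan sulfate sulfotransferase (2.38-fold, -1.25 ± 0.18). Klb, a co-receptor for endocrine FGFs, was higher, with 0, 6 and 13 counts in BRE-negative and 530 and 99 in FL (5.49 ± 0.92, edgeR adjusted p = 0.00165), a gene with a wide spread between the FL libraries (13.1-fold without FL replicate 1, 76.9-fold without FL replicate 2, 28.5-fold without BRE-negative replicate 1 and 95.8-fold without replicate 3). Fgfr3 differed as much between them, at 5.87 and 1.22 CPM. It was 7.91-fold lower without FL replicate 1 and was not called without FL replicate 2 (1.66-fold, edgeR adjusted p = 0.123) or without any 1 BRE-negative library (edgeR adjusted p = 0.0743 to 0.12). Of 17 other ligand genes 7 could be tested. Fgf17 was 3.80-fold lower (-1.93 ± 0.43), and 8.45-fold and 2.42-fold lower without FL replicates 1 and 2. Fgf18 was lower too, at 1.63 and 0.173 CPM (9.35-fold, and 14.4-fold without FL replicate 1). Fgf3 and Fgf10 were higher, at 2.2 CPM or less in both groups. Without FL replicate 1 neither was called (edgeR adjusted p = 0.0978 and 0.079), and Fgf3 was not called without FL replicate 2 or BRE-negative replicates 1 or 3 either (edgeR adjusted p = 0.0515 to 0.109). Fgf18, Fgf3 and Fgf10 are named after their values were seen.

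**Figure D3:**
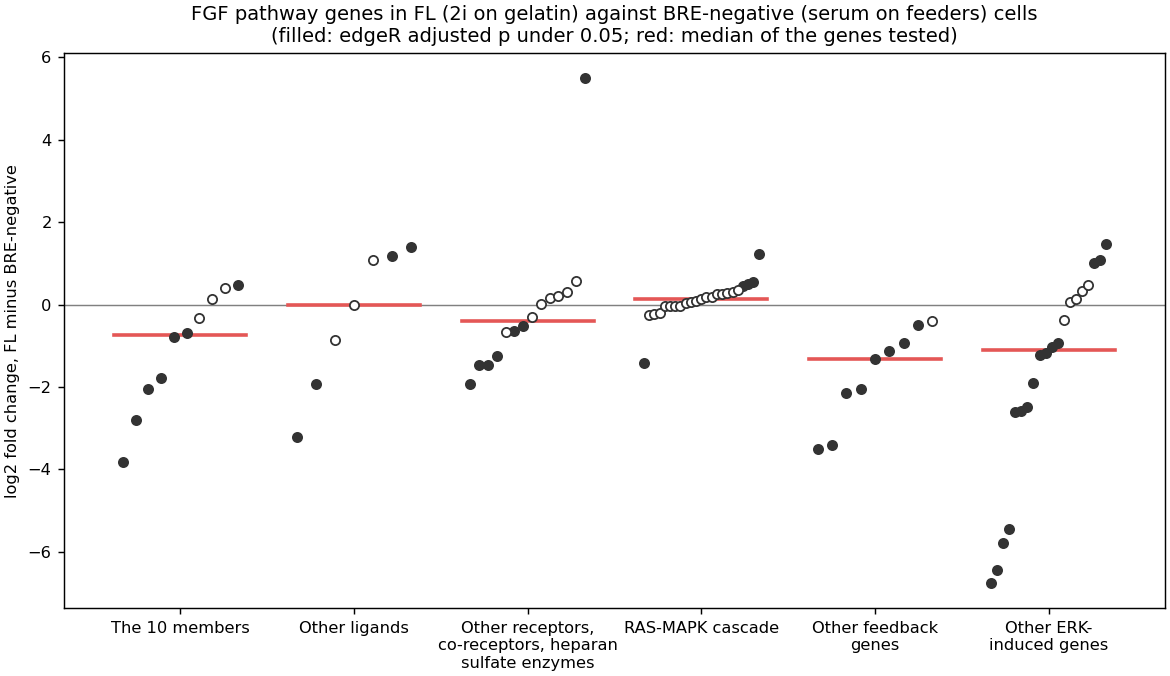
Log2 fold change of FL minus BRE-negative (vertical axis) for the 10 genes and for the tested genes of 5 further FGF pathway lists, each point 1 gene, filled for edgeR adjusted p under 0.05, with the median of each list as a red line. The medians are -1.31 for other feedback genes and -1.11 for other ERK-induced genes, against 0.13 for the cascade.

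The second comparison set the libraries labelled Smad1/5 -/- against FL, both in 2i. It shares the FL libraries with the first. None of the 10 genes passed edgeR's test between KO and FL, where 5.03% of all 15933 genes did (1.85% higher and 3.18% lower in KO). At an unadjusted p under 0.05 there were 4 of the 10 (Fgf4, Spry2, Spry4 and Spred1) and 3646 of all genes. The log2 fold change was positive for 9 of the 10, with a median of 0.12 against 0.01 over all genes. The largest differences were those of Spry4 and Spry2. DESeq2 called these 2 (adjusted p = 0.00518 and 0.0103).

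Spry4 had 13.2 and 14.6 CPM in FL and 18.9, 19.5, 29.3 and 31.1 CPM in KO replicates 1 to 4 (1.78-fold, log2 fold change 0.83 ± 0.23, edgeR adjusted p = 0.0815). All 4 KO libraries were above both FL libraries, with replicates 3 and 4 the highest. Spry2 had 32.3 and 46.0 CPM in FL and 62.3, 48.1, 63.3 and 71.5 CPM in KO (1.57-fold, 0.65 ± 0.18, edgeR adjusted p = 0.0864). Again no KO library reached down to FL, although KO replicate 2 came close. Dusp6, outside the 10, had 11.4 and 15.6 CPM in FL and 18.5, 16.6, 23.5 and 25.7 CPM in KO (0.64 ± 0.21, edgeR adjusted p = 0.122, DESeq2 adjusted p = 0.0325). Without KO replicate 1, Spry4 (0.94, edgeR adjusted p = 0.049) and Spred1 (0.41, edgeR adjusted p = 0.0408) passed.

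Spry1 and Fgf4 were the other 2 genes whose libraries did not overlap, 4 of the 10 against 34.7% of all genes. In 3 of these 4 genes all KO libraries were above FL (17.8% of all genes) and in Fgf4 all were below (16.9%). Spry1 had 12.2 and 13.1 CPM in FL and 13.4 to 18.3 CPM in KO (0.31 ± 0.14, edgeR adjusted p = 0.25). Fgf4 was the 1 gene with a negative log2 fold change, with 339.5 and 316 CPM in FL and 310, 288, 268 and 263 CPM in KO (-0.21 ± 0.08, edgeR adjusted p = 0.159). Etv4 (0.09 ± 0.20), Etv5 (0.06 ± 0.08), Spred2 (0.12 ± 0.14), Fgfr1 (0.13 ± 0.13) and Fgfr2 (0.10 ± 0.29) had edgeR adjusted p-values from 0.573 to 0.875. KO replicates 1 and 2 and replicates 3 and 4 stood apart for Fgfr1, at 55.5 and 58.6 against 71.0 and 74.1 CPM, and for Fgfr2, at 7.08 and 10.8 against 14.0 and 15.9 CPM.

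**Figure D4:**
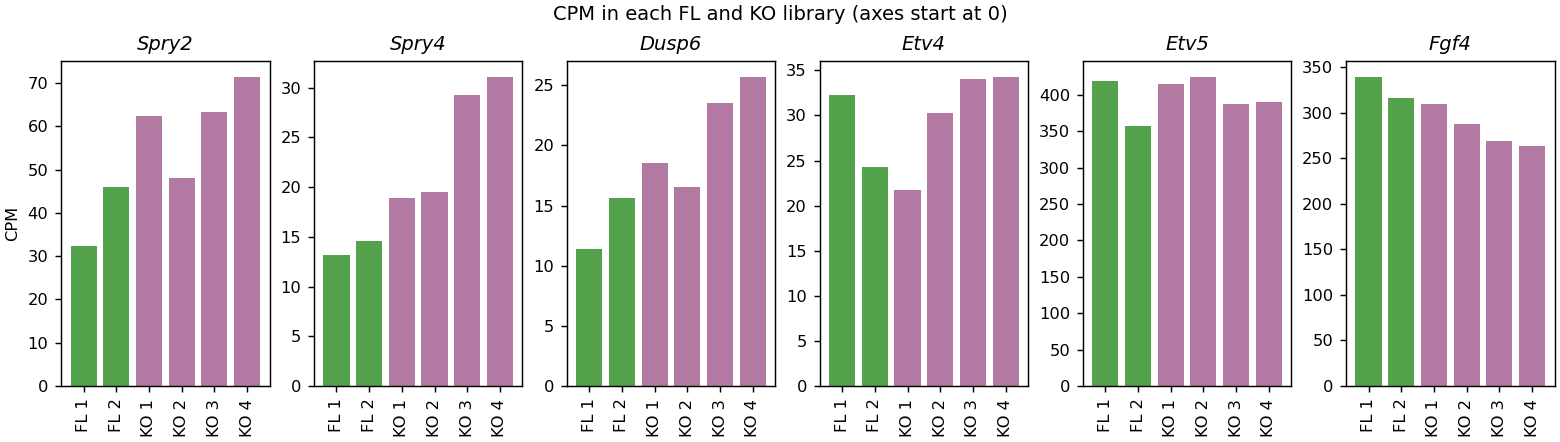
CPM (bars, axes from 0) of Spry2, Spry4, Dusp6, Etv4, Etv5 and Fgf4 in FL replicates 1 and 2 (green) and KO replicates 1 to 4 (purple). Spry4 is at 13.2 and 14.6 CPM in FL and 18.9 to 31.1 CPM in KO, while Etv4 and Etv5 overlap between the groups.

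In KO, too, the levels of the 3 genes with the largest differences were below those in serum. With KO in place of FL against BRE-negative, the log2 fold change was -3.01 for Spry4 (edgeR adjusted p = 3.3e-06), -1.41 for Spry2 (edgeR adjusted p = 5.54e-05) and -2.72 for Etv4 (edgeR adjusted p = 7.57e-07).

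On the pathway lists, 6 of 72 tested genes were higher and 4 lower in KO. Of 9 other feedback genes, Il17rd, which encodes the FGF receptor inhibitor SEF, was 1.7-fold higher (0.77 ± 0.11, edgeR adjusted p = 0.0138), with 37.4 and 45.5 CPM in FL and 62.6 to 74.8 CPM in KO. Flrt3 was 1.84-fold higher (0.88 ± 0.20, edgeR adjusted p = 0.0446), and 0 were lower. The Flrt3 call was lost without any 1 KO library (edgeR adjusted p = 0.0586 to 0.121). Of 18 ERK-induced genes, Myc (2.39-fold, 1.25 ± 0.28), Elk3 (2.02-fold, 1.01 ± 0.17) and the ephrin receptor gene Epha4 (1.61-fold, 0.69 ± 0.14) were higher. Ier3 (3.11-fold, -1.64 ± 0.37) was lower. The Ier3 call was lost without any 1 KO library (edgeR adjusted p = 0.0554 to 0.115). Myc was not called without KO replicates 2, 3 or 4 (edgeR adjusted p = 0.0672 to 0.112). Elk3 and Epha4 were not called without KO replicates 3 or 4 (edgeR adjusted p = 0.0505 to 0.0919). The glypican gene Gpc4 was 2.01-fold higher and the scaffold gene Ksr1 1.96-fold lower. Gpc4 was not called without KO replicates 3 or 4 (edgeR adjusted p = 0.0567 and 0.0566). Fgfr3, at 3.55 and 0.381 CPM, and Fgf1, at 2.49 and 0.362 CPM, were lower too (9.29-fold and 6.87-fold), both named after their values were seen. The Fgfr3 call was lost without KO replicates 2, 3 or 4 (edgeR adjusted p = 0.059 to 0.0823). Fgfr3 was 3.21-fold lower without FL replicate 1 (edgeR adjusted p = 0.275) and 15.6-fold lower without FL replicate 2, and Ier3 1.85-fold lower without FL replicate 1 (edgeR adjusted p = 0.409). Of the lists, 0 genes were called without FL replicate 1, 4 without FL replicate 2, 6 without KO replicate 2, and 3 each without KO replicates 3 and 4.

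The third comparison set BRE-positive against BRE-negative cells collected with them, with the pair as a block. It shares the BRE-negative libraries with the first. Spry2 was 1.18-fold higher in BRE-positive cells and was the 1 gene of the 10 that passed, where 2.97% of all 15435 genes did (1.96% higher and 1.02% lower). Its levels were 118 and 136 CPM in pair 1, 183 and 214 CPM in pair 2 and 182 and 213 CPM in pair 3, BRE-negative first (log2 fold change 0.23 ± 0.05, edgeR adjusted p = 0.0249). The difference was nearly the same in the 3 pairs (0.21, 0.23 and 0.22), while the spread between the pairs was larger. Without the pair as a block the log2 fold change was 0.23 with an edgeR adjusted p = 1, and Spry2 missed the threshold without pair 2 (0.23, edgeR adjusted p = 0.0874) and without pair 3 (0.23, edgeR adjusted p = 0.269).

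Of the other Sprouty genes, Spry4 had 136 and 156, 253 and 258, and 204 and 217 CPM in the pairs (0.12 ± 0.05, edgeR adjusted p = 0.255), higher in 3 of 3 pairs. Spry1 was lower in 3 of 3 pairs, at 26.7 and 21.1, 18.7 and 16.4, and 19.6 and 17.0 CPM (-0.23 ± 0.07, edgeR adjusted p = 0.105). The 3 Sprouty genes therefore did not share a sign. The feeder fibroblast markers, 5 of 18 of which were lower in BRE-positive cells and 0 higher, had sums of 136 and 96.9, 237 and 210, and 248 and 202 CPM in the same pairs. Their part in the values of Spry1 was not tested.

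Etv4 was higher in 3 of 3 pairs, at 189 and 196, 232 and 258, and 168 and 190.5 CPM (0.14 ± 0.05, edgeR adjusted p = 0.164). With offsets for exon length and GC content it passed (0.19, edgeR adjusted p = 0.0225), and so it did without pair 1 (0.18, edgeR adjusted p = 0.00117). Etv5 had -0.07 ± 0.05 (edgeR adjusted p = 0.554) and Fgf4 -0.05 ± 0.06 (edgeR adjusted p = 0.674). Both passed without pair 1 (-0.12 and -0.13, edgeR adjusted p = 0.0287 and 0.0225), a fit that called 2225 genes in all.

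Fgfr2 had 7.94 and 3.85 CPM in pair 1, 9.73 and 8.15 CPM in pair 2, and 7.63 and 6.68 CPM in pair 3, lower in 3 of 3 pairs (-0.46 ± 0.14, edgeR adjusted p = 0.103). The low value of BRE-positive replicate 1 stands apart, and without pair 1 the log2 fold change was -0.22 (edgeR adjusted p = 0.233), while it passed without pair 2 (-0.59, edgeR adjusted p = 0.0133) and without pair 3 (-0.60, edgeR adjusted p = 0.012). Fgfr1 (0.02 ± 0.05), Spred1 (0.08 ± 0.07) and Spred2 (0.06 ± 0.07) had edgeR adjusted p-values from 0.614 to 0.859. The direction was shared by all 3 pairs for 5 of the 10 genes and for 40.3% of all genes tested. The groups overlapped for each of the 10 genes (they did not for 7.22% of all genes).

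On the pathway lists, 6 of 71 tested genes were higher and 3 lower in BRE-positive cells, 9 in all, against 30 without pair 1, 6 without pair 2 and 5 without pair 3. Of 23 cascade genes 4 were higher and 0 lower, the higher ones including Nf1 (1.3-fold, 0.38 ± 0.06), Braf (1.28-fold, 0.36 ± 0.06) and Rps6ka3 (1.25-fold, 0.32 ± 0.08). The exon lengths of these 3 are 15.9, 13.9 and 8.32 kb, and the genes called higher in this comparison had a median of 9.4 kb, against 4.07 kb for all genes tested. With the offsets, Nf1 and Braf passed and Rps6ka3 did not (edgeR adjusted p = 0.0884). Rps6ka3 was not called without pair 3 either (edgeR adjusted p = 0.197). Spry2 is 2.09 kb long and had 0.26 with the offsets (edgeR adjusted p = 0.00346). The cause of these differences was not tested.

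Of 20 ERK-induced genes, Epha4 (1.6-fold, 0.68 ± 0.10) and Phlda1 (1.44-fold, 0.52 ± 0.11) were higher. Egr2 (1.5-fold, -0.58 ± 0.12), Ccnd1 (1.2-fold, -0.26 ± 0.06) and Ier2 (1.16-fold, -0.22 ± 0.05) were lower. Ier2 did not pass with the offsets (edgeR adjusted p = 0.12). Ier2 and Ccnd1 were not called without pair 2 (edgeR adjusted p = 0.0921 and 0.0678) or pair 3 (edgeR adjusted p = 0.437 and 0.427), and Phlda1 was not without pair 2 (edgeR adjusted p = 0.0584). None of the 9 other feedback genes passed edgeR's test with the pair as a block, among them Dusp6, which had 105 and 111.5, 199.6 and 184, and 153 and 147 CPM in the pairs (-0.02 ± 0.06, edgeR adjusted p = 0.901).

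Within each culture system, Spry2, Spred1, Spred2 and Dusp6 varied with Spry4 from library to library, while Spry1 and Fgfr1 ran against it in serum. Over the 6 serum libraries, log2 CPM of Spry4 had a Pearson correlation of 0.97 with Dusp6, 0.92 with Spry2 and 0.86 with both Spred1 and Spred2. It was 0.605 with Etv5, 0.59 with Etv4, 0.56 with Fgf4, 0.51 with Fgfr2, -0.865 with Fgfr1 and -0.9 with Spry1. These libraries form 3 pairs, and pair 1 was low in Spry4, so the values describe few independent cultures. Over the 6 2i libraries the correlation was 0.95 with Dusp6, 0.90 with Spred1, 0.87 with Spry2, 0.83 with Fgfr1 and 0.79 with Spred2. It was 0.55 with Fgfr2, 0.48 with Etv4, 0.25 with Spry1, -0.09 with Etv5 and -0.97 with Fgf4. For Fgfr1, Spry1, Fgf4 and Etv5 the sign thus differed between serum and 2i. The 2i libraries share 2 parental lines and include both genotypes.

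The mean standardized profile of the 10 genes over the 12 libraries correlated most with Spry4 (0.97), Spred1 (0.96) and Spry2 (0.95) among them. The lowest values were those of Etv5 (-0.85), Fgfr2 (-0.37) and Fgf4 (-0.14). Each gene is part of this mean, so its correlation with the mean is in part built in. Among 11448 protein-coding genes, the 5 outside the 10 with the most alike profile were 2700081O15Rik, Ski, Dph3, Cops8 and D10Wsu102e (Pearson correlation 0.98 to 0.99, 12 libraries). Those 12 points fall into 2 sets, the serum and the 2i libraries.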

How the data were processed

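Total RNA of 12 libraries was sequenced from a stranded kit after ribosomal RNA removal, per the labels' protocols. Per the submitters' processing notes, the tools included STAR 2.4.1d for reads and featureCounts 1.4.6, beside DESeq2 1.6.3; the builds named are GRCm38.p4 and mm10. No source used here gives the annotation release or whether counting used strand. The authors deposited raw counts per Ensembl gene and a normalised signal named TPM, whose values equal (count + 1) per length scaled per library in 100% of cases within 0.1%. Total counts per library limit the precision and are given with the results.

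Tests were edgeR 4.0.16 (R 4.3.3) quasi-likelihood fits on the deposited counts with TMM scaling, genes kept by filterByExpr with the groups (count 10 or more, total 15 or more) and Benjamini-Hochberg adjustment over all genes tested (threshold 0.05). Standard errors were derived from each fold change with its F value. CPM use TMM factors over all 12 libraries. In the BRE fit pairs were blocks, since the design text describes paired collection, and same-numbered libraries deviated together (correlations across genes 0.793, 0.744 and 0.699). The other fits had no block. The labels tie no library to a parental line, so no line block was fitted. The 4 KO libraries count as independent, although each of the 2 parental lines gave 2 of them. KO replicates 1 and 2 deviated with FL 1 (0.357 and 0.527) and replicates 3 and 4 with FL 2 (0.518 and 0.5); with 2 FL libraries the correlations with FL 1 and FL 2 differ only in sign. The BRE libraries are called biological replicates; for FL and KO separate cultures are not described, and p-values then measure only the spread between libraries, which may be technical. KO replicates 3 and 4 were the most alike (median chi-square 1.23 per gene) and were counted separately.

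Alternatives were DESeq2 1.42.0, RLE scaling, other count filters, all libraries in 1 fit, limma 3.58.1 on log2(TPM + 1) and log2(TPM + 0.1), offsets for exon length and GC content, the block added or removed, other groups, and each library or pair left out. The fits were tested on simulated data. Genes named were all 10, Dusp6, defining cell type markers, up to 5 called genes per list and comparison (average log2 CPM of 1 or more) and the 5 most alike genes; some of these are not reported here. Genes and lists were chosen with earlier results of these data known.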

Additional observations from a re-analysis of the deposited data

How the results depend on the processing

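In FL against BRE-negative, Spry4 (-4.05 to -3.01), Etv4 (-3.00 to -2.60), Spry2 (-2.31 to -1.41), Spred1 (-1.93 to -1.49) and Fgfr1 (-0.75 to -0.44) passed in all 17 alternatives run. With KO in place of FL, Fgf4 was at -0.091. With the replicate number as a block, which pairs nothing here, 6 of the 10 genes were called and Etv5 was not (edgeR adjusted p = 0.0533). Leaving out 1 library gave 5 to 8 of the 10 genes, 30 to 43 genes of the lists (39 with all libraries) and 4623 to 8247 of all genes (7474 with all libraries), the lowest without FL replicate 1 and, at 4761, without FL replicate 2. In KO against FL, 801 genes were called in all, 10 of them on the lists and 0 among the 10. The replicate block gave 0, 0 and 0, with Fgfr1 at -0.056, Fgfr2 at -0.352, Spred2 at -0.06 and Etv4 at -0.126, but the numbers do not pair these libraries (correlation of deviations 0.357 for number 1 and -0.527 for number 2). DESeq2 gave 1508, 16 and 2, and no count filter called 2 of the 10. With limma, 198, 97 and 360 genes were called (TPM + 1, TPM + 0.1, and TPM + 1 without filter), with 1, 0 and 2 on the lists and 0 of the 10, and Fgfr2 was at -0.001 with TPM + 0.1. Leaving out 1 library gave 0 to 857 of all genes (0 without FL replicate 1, 142 without FL replicate 2, 236 without KO replicate 3, 215 without KO replicate 4), 0 to 9 on the lists and 0 to 2 of the 10. In these fits Etv4 ran from -0.113 to 0.311 and Etv5 from -0.063 to 0.182 (lowest without FL replicate 2), and Fgfr2 from -0.084 (without KO replicate 4) to 0.279. In BRE-positive against BRE-negative, 459 genes were called in all, 9 on the lists and 1 of the 10. Without the replicate block, with all 12 libraries in 1 fit, and with each of the 3 limma fits, these were 0, 0 and 0. No count filter gave 1010, 18 and 2, and the length and GC offsets called 2 of the 10. With limma, Fgf4 was at 0.037, Etv5 at 0.023 and Dusp6 at 0.074, 0.075 and 0.074. Leaving out 1 pair gave 200 to 2225 genes, 5 to 30 on the lists and 1 to 4 of the 10; Spred1 ran from -0.056 (without pair 1) to 0.145, and, with the sign reversed without pair 2, Fgfr1 from -0.012 to 0.059, Spred2 from -0.044 to 0.125 and Dusp6 from -0.079 to 0.028. The causes of these changes were not tested. With 2 FL libraries, a fit without one of them assumes that the other varies like the remaining group.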
